A study of Mus musculus with 9 samples.

Results

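Matricellular proteins are secreted into the extracellular matrix, where they act on cells rather than bear load, and fibronectin is the fibrillar glycoprotein on which much of that matrix is assembled. The transcripts of 8 such genes were examined in 4T1 tumors, out of 22609 genes listed in the count tables: Spp1 (osteopontin), Tnc (tenascin C), Postn (periostin), Sparc (osteonectin), Fn1 (fibronectin), Thbs1 and Thbs2 (thrombospondins 1 and 2) and Vcan (versican). They were taken by symbol as a family, with earlier results of these data known. Each symbol was found once in the tables, and all 8 passed the filter on low counts.

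As background, these proteins bind integrins, CD44, CD36 or CD47 on cells and collagens, hyaluronan or fibronectin in the matrix, and they are made at high levels in wounds and in the stroma of tumors. Fibroblasts, endothelial cells, macrophages and tumor cells can each make several of them. Fn1, Tnc and Vcan transcripts are alternatively spliced, and counts per gene do not separate their isoforms.

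The tumors came from 4T1 cells, a mouse mammary carcinoma line used as a model of triple-negative breast cancer (TNBC), injected orthotopically into BALB/c mice (mammary fat pad), the strain from which the line was derived. A low-fat diet (LFD, 10 kcal% fat) or a high-fat diet (HFD, 60 kcal% fat) was given for 6 weeks before 500000 cells were injected and was then continued. The LFD and HFD groups were given the vehicle alone, which was hydroxy propyl cellulose at 0.3%, and the HFD + EC359 group received EC359, an inhibitor of the leukemia inhibitory factor receptor (LIFR), at 5 mg/kg intraperitoneally on 5 days a week. Each group had 3 libraries of whole-tumor RNA, no library here came from EC359 given on the LFD, and all tumors derive from 1 cell line. The design speaks of 9 tumors but the labels name no mouse for a library, so p-values measure the spread between these libraries, which may be technical.

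The 8 genes lie on 8 chromosomes. In the mm9 coordinates of the count tables, which span each gene from its first to its last exon, Spp1 is at chr5:104864130-104870072 (plus strand), Tnc at chr4:63620819-63708049 (minus), Postn at chr3:54165029-54194963 (plus) and Sparc at chr11:55208003-55233582 (minus). Fn1 is at chr1:71632097-71699745 (minus), Thbs1 at chr2:117937658-117952869 (plus), Thbs2 at chr17:14802507-14831269 (minus) and Vcan at chr13:89794915-89882117 (minus). Reads were counted over all listed exons of a gene, untranslated regions included, and no exon of the 8 overlapped an exon of another listed gene on either strand.

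Postn, Sparc, Thbs2 and Vcan rose in HFD tumors and fell in HFD + EC359 tumors, as described below for each gene, and the 250 bases before their start sites are shown for that reason. The sequences are from RefSeq on build GRCm38.p6, whose coordinates differ from mm9, run 5′ to 3′ on the strand of the gene and end at the base before the start site that the count tables use. They span chr3:54360857-54361106 (plus strand) for Postn, chr11:55420081-55420330 (minus) for Sparc, chr17:14694263-14694512 (minus) for Thbs2 and chr13:89742513-89742762 (minus) for Vcan. Capitals mark the letters TATAAA or, on the other strand, TTTATA.
Postn: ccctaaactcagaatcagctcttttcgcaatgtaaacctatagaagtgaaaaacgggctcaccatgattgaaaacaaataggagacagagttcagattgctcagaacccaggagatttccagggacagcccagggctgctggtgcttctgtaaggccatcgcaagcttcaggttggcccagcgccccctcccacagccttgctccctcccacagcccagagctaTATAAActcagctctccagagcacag
Sparc: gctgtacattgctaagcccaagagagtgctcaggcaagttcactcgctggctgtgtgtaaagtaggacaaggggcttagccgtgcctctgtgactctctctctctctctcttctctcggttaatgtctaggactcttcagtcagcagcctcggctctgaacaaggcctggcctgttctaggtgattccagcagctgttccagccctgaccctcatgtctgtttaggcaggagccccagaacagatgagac
Thbs2: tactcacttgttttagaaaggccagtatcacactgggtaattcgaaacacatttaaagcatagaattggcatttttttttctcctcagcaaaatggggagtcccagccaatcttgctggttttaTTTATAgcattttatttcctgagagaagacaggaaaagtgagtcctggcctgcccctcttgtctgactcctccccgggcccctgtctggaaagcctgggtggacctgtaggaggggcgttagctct
Vcan: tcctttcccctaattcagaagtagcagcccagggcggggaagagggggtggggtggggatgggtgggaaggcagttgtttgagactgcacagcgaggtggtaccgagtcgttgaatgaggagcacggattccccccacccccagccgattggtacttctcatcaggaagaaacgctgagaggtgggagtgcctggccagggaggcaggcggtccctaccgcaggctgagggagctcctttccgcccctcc

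Searched on both strands, TATAAA was found 26 to 21 bases before the start site of Postn and, as TTTATA, 126 to 121 bases before that of Thbs2, and it was absent from the windows of Sparc and Vcan. The same letters were found in the RefSeq windows of Spp1, 211 to 206 bases before the start, and of Tnc, 126 to 121 bases before it. TATAAA occurred in 12.4% of the 32851 RefSeq promoter windows of this length. Of 3 other motifs searched, TGANTCA (the AP-1 site) occurred in 6.75% of all windows, TTCNNNGAA (a STAT site) in 7.02% and GGAATG (a TEAD site) in 12.6%, and none was found in the 6 windows of Spp1, Tnc, Postn, Sparc, Thbs2 and Vcan. A match is a run of letters and not a shown binding site, and its absence says only that the letters are not in the window. For Fn1 and Thbs1 the table used had no entry.

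Totals ran from 5085357 to 6509130 counts in LFD libraries, 7314704 to 7922852 in HFD libraries and 8043649 to 9751201 in HFD + EC359 libraries, so depth rose with the groups. Levels are given as CPM, the count of a gene per 1e6 counts of its library, scaled by TMM factors, and before that scaling 3 counts correspond to 0.308 to 0.59 CPM. The LFD libraries differed more among themselves than the others, with a biological coefficient of variation of 5.61% against 2.54% in HFD and 2.76% in HFD + EC359. The last 2 are low for tumors of separate animals, and if libraries of a group share an animal or RNA, the SEs and adjusted p-values given here are too small. The LFD libraries also held fewer reads from genes of low GC content: the mean deviation of the genes under 45.8% GC minus that of the genes over 55.4% was -0.54 to -0.32 on the log2 scale in LFD, 0.10 to 0.16 in HFD and 0.25 to 0.30 in HFD + EC359. Removing each library's GC and length trend moved values of the 8 genes, and the larger moves stand with the gene.

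By CPM, which is not corrected for gene length, Fn1 ranked between 5 and 9 of all listed genes in the 9 libraries, and Vcan, the rarest of the 8 on either scale, between 5307 and 9504. Per kilobase of exon, the order in LFD tumors was Fn1 (480 ± 17 CPM per kb, SD, n = 3), Sparc (318 ± 8.81), Spp1 (144 ± 13.9), Thbs1 (97.1 ± 5.96), Tnc (61.6 ± 1.53), Postn (39.1 ± 6.21), Thbs2 (24 ± 0.823) and Vcan (1.09 ± 0.0482). No 2 neighbors in that order overlapped between their libraries. In HFD tumors Postn (73.4 ± 3.23) stood above Tnc (44.8 ± 1.12), and the other places were the same. In HFD + EC359 tumors Spp1 reached 320 ± 3.98 CPM per kb and Sparc 325 ± 4.85, and the libraries of this pair of neighbors overlapped.

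**Figure D1:**
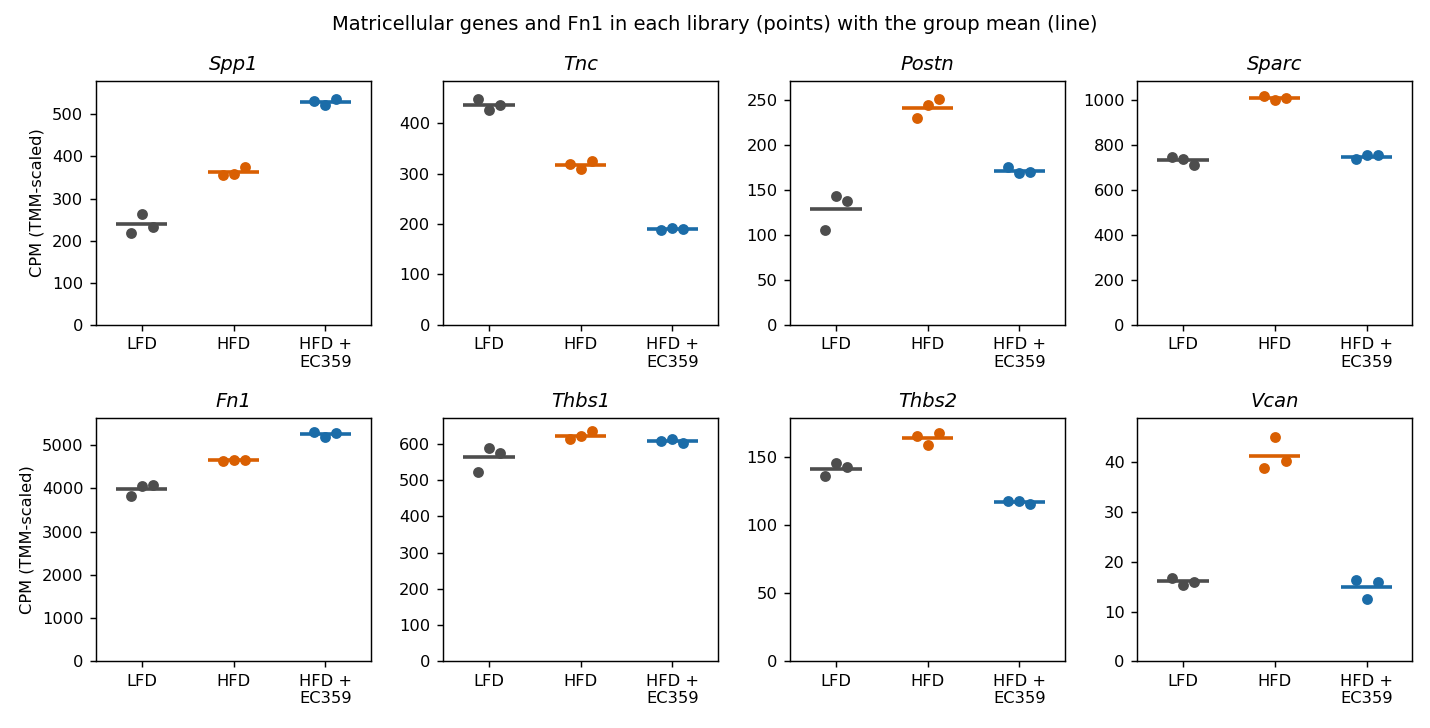
Each panel plots 1 gene, with TMM-scaled CPM on a vertical axis that starts at 0, a point for each of the 3 libraries of LFD, HFD and HFD + EC359, and a line at the group mean. Spp1 and Fn1 step up from LFD to HFD to HFD + EC359, Tnc steps down from 437 to 318 to 191 CPM, and Vcan is high in the HFD libraries alone, at 38.7 to 44.9 CPM.

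To see how the diet changed this group of genes, HFD tumors were compared with LFD tumors. Of the 8 genes, 7 were higher and 1, Tnc, was lower at an adjusted p under 0.05 (edgeR's quasi-likelihood test, Benjamini-Hochberg adjustment over 13366 genes). Among all genes tested 51.8% passed, 26.0% higher and 25.8% lower. The median log2 fold change was 0.34 for the 8 genes and 0.007 for all genes. At a stricter threshold (adjusted p under 0.01 with more than a 2-fold change) Vcan alone passed, on the higher side, where 5.71% of all genes did, 3.03% higher and 2.68% lower. The libraries of the 2 groups did not overlap for any of the 8 genes, nor for 57.1% of all genes (28.6% in each direction).

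EC359 under the HFD was examined by comparing HFD + EC359 with HFD tumors. Spp1 and Fn1 were higher, Tnc, Postn, Sparc, Thbs2 and Vcan were lower, and Thbs1 did not pass, so 7 of 8 genes passed an adjusted p under 0.05 against 26.6% of all genes. Of all genes, 12.7% were higher and 13.9% lower, and with libraries scaled by their totals alone the higher share of the passing genes went from 47.8% to 58.4%, while the same number of the 8 genes passed. The median log2 fold change of the 8 was -0.46, against 0.006 over all genes. Vcan again was the member past the stricter threshold, which 3.43% of all genes passed, 2.06% higher and 1.38% lower. Libraries did not overlap for 7 of the 8 genes, 2 higher and 5 lower, and for 41.3% of all genes, 20.6% higher and 20.7% lower.

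HFD + EC359 tumors were also set against LFD tumors, a comparison in which diet and treatment differ together. Spp1, Fn1, Postn and Thbs1 were higher and Tnc and Thbs2 lower, 6 of 8 genes against 58.3% of all genes (29.2% higher and 29.1% lower), and Sparc and Vcan did not pass. The median log2 fold change was 0.07 for the 8 genes and 0.011 for all genes. Spp1 (higher) and Tnc (lower) passed the stricter threshold, where 5.09% of all genes did, 3.66% higher and 1.43% lower. Libraries did not overlap for 6 of the 8 genes, 4 higher and 2 lower, and for 62.9% of all genes, 31.8% higher and 31.1% lower. The 3 comparisons share libraries pairwise, so their values for a gene are not independent of one another.

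**Figure D2:**
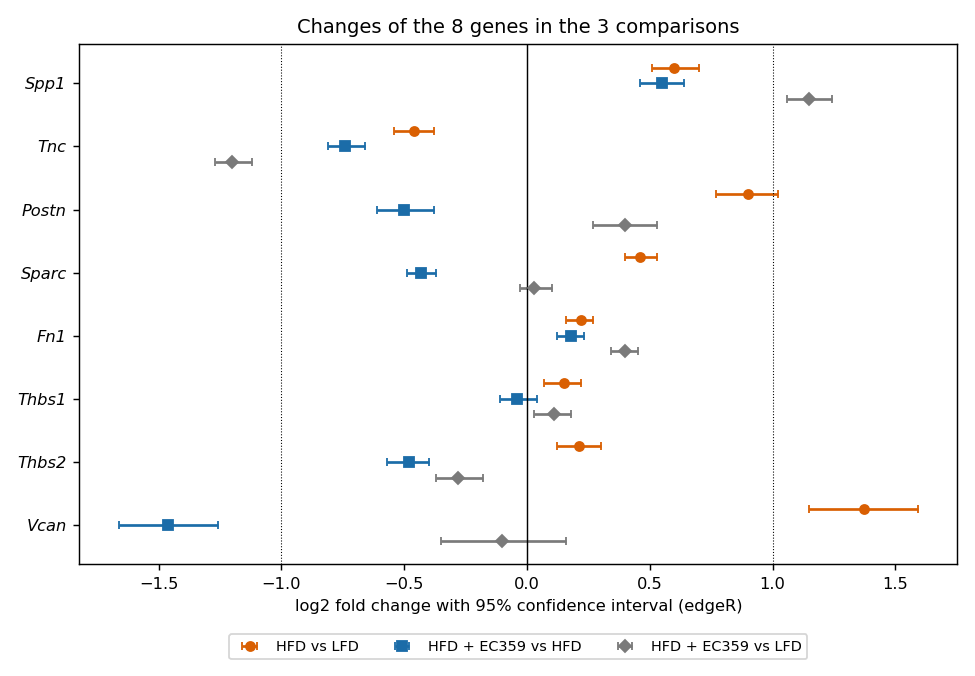
The log2 fold change of each of the 8 genes is drawn on the horizontal axis with its 95% confidence interval from edgeR, as circles for HFD vs LFD, squares for HFD + EC359 vs HFD and diamonds for HFD + EC359 vs LFD, with dotted lines at a 2-fold change. Spp1 and Fn1 lie to the right of 0 and Tnc to the left in all 3 comparisons, while Vcan moves from 1.37 with the HFD to -1.46 with EC359.

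Spp1 encodes osteopontin, a phosphoprotein that binds CD44 and integrins and that macrophages and tumor cells can secrete. Its level was 219, 264 and 233 CPM in the LFD libraries, 355, 358 and 375 in HFD and 533, 523 and 536 in HFD + EC359. The 3 groups did not overlap, and each step was upward. It was 1.52-fold higher in HFD than in LFD tumors (log2 fold change 0.60, SE 0.0462, adjusted p = 1.44e-12) and a further 1.46-fold higher with EC359 (0.55, SE 0.0424, adjusted p = 3.15e-12). Between HFD + EC359 and LFD the log2 fold change was 1.15 (95% confidence interval 1.06 to 1.24), and this was the one comparison in which Spp1 passed the stricter threshold. With the GC and length trend removed, HFD vs LFD was at 0.39 and HFD + EC359 vs HFD at 0.44. HFD + EC359 vs LFD was then at 0.83, no longer past the 2-fold limit.

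Tnc encodes tenascin C, a multi-armed glycoprotein of wounds and tumor stroma that loosens the attachment of cells to fibronectin. It was the one member that fell in both steps. LFD libraries held 448, 427 and 437 CPM, HFD libraries 319, 309 and 325, and HFD + EC359 libraries 189, 193 and 191, with no overlap between groups. HFD tumors were lower than LFD tumors by 1.38-fold (log2 fold change -0.46, SE 0.0371, adjusted p = 4.33e-12). EC359 tumors were lower than HFD tumors by 1.67-fold (-0.74, SE 0.0382, adjusted p = 1.01e-16), and lower than LFD tumors by 2.29-fold (-1.20, SE 0.0382, adjusted p = 3.27e-22). Without the GC and length trend the 3 values were -0.42, -0.72 and -1.14.

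Postn encodes periostin, which fibroblasts deposit and which links tenascin C, collagen and fibronectin and binds αv integrins. The LFD libraries read 105, 143 and 138 CPM, the first standing below the other two, the HFD libraries 230, 244 and 251, and the HFD + EC359 libraries 175, 169 and 170. No libraries of different groups overlapped, and the treated tumors lay between the vehicle groups. Postn was 1.86-fold higher in HFD than in LFD (log2 fold change 0.90, SE 0.0619, adjusted p = 1.05e-13) and 1.41-fold lower with EC359 than in HFD (-0.50, SE 0.0567, adjusted p = 2.51e-08). Against LFD, the HFD + EC359 tumors were 1.32-fold higher (0.40, adjusted p = 1.77e-06), but with the GC and length trend removed this difference was 0.09 and did not pass (edgeR, adjusted p = 0.169). The same correction brought the diet difference to 0.67 and that between HFD + EC359 and HFD to -0.58, both still passing.

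Sparc encodes osteonectin, a collagen-binding glycoprotein made by fibroblasts and endothelial cells. It measured 747, 738 and 708 CPM in LFD, 1016, 997 and 1008 in HFD and 735, 753 and 754 in HFD + EC359. The HFD libraries stood apart from the rest, and those of LFD and HFD + EC359 overlapped. Sparc rose 1.38-fold with the HFD (log2 fold change 0.46, SE 0.0315, adjusted p = 7.9e-14) and fell 1.35-fold with EC359 (-0.43, SE 0.0309, adjusted p = 4.96e-13). HFD + EC359 and LFD differed by 0.03 (95% confidence interval -0.03 to 0.10, edgeR, adjusted p = 0.394). This last difference passed in 2 alternatives, at 0.11 with libraries scaled by totals (adjusted p = 0.00341) and at 0.09 on removal of the GC and length trend (adjusted p = 0.00943).

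Fn1 encodes fibronectin, the ligand of α5β1 integrin and the scaffold on which several of the other matrix proteins assemble. Its libraries gave 3829, 4065 and 4082 CPM in LFD, 4638, 4644 and 4649 in HFD and 5290, 5183 and 5283 in HFD + EC359. The groups were separate and ordered upward, as for Spp1, by smaller steps. Fn1 was 1.16-fold higher in HFD than in LFD (log2 fold change 0.22, SE 0.0265, adjusted p = 2.92e-08), 1.13-fold higher again with EC359 (0.18, SE 0.0264, adjusted p = 3.21e-06) and 1.32-fold higher in HFD + EC359 than in LFD (0.40, SE 0.0265, adjusted p = 2.75e-14). All 3 changes were small in fold and none came near a 2-fold change. On removal of the GC and length trend they were 0.27, 0.20 and 0.47.

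Thbs1 and Thbs2 encode trimeric thrombospondins that bind CD36 and CD47 and restrain angiogenesis, and Thbs1 protein can also activate latent TGF-beta. Thbs1 stood at 524, 589 and 576 CPM in LFD, 613, 622 and 635 in HFD and 607, 614 and 602 in HFD + EC359, so the first LFD library was the lowest and the HFD and HFD + EC359 libraries overlapped. It was higher in HFD than in LFD by 1.11-fold (log2 fold change 0.15, SE 0.0369, adjusted p = 0.00134), and EC359 and HFD tumors differed by -0.04 (95% confidence interval -0.11 to 0.04, edgeR, adjusted p = 0.485). HFD + EC359 tumors exceeded LFD tumors by 0.11 (adjusted p = 0.0127), a call that was lost without LFD replicate 1 (0.06, adjusted p = 0.0666), without HFD + EC359 replicate 2 (0.10, adjusted p = 0.0517) and on removal of the GC and length trend (0.06, adjusted p = 0.161). The same correction brought the diet difference to 0.09 (adjusted p = 0.0291).

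Thbs2 measured 136, 146 and 143 CPM in LFD, 166, 159 and 168 in HFD and 118, 118 and 116 in HFD + EC359. The groups did not overlap, and the treated tumors lay below both vehicle groups. Thbs2 was 1.16-fold higher with the HFD (log2 fold change 0.21, SE 0.0458, adjusted p = 0.00028), 1.4-fold lower with EC359 than in HFD (-0.48, SE 0.0441, adjusted p = 1.51e-10) and 1.21-fold lower in HFD + EC359 than in LFD (-0.28, SE 0.0467, adjusted p = 6.15e-06). With the GC and length trend removed the diet difference was 0.11 (adjusted p = 0.0416), and HFD + EC359 vs LFD was at -0.38.

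The pair of thrombospondins was also compared within each library. The log2 ratio of Thbs2 to Thbs1 was -1.94, -2.02 and -2.01 in LFD, -1.89, -1.97 and -1.92 in HFD, and -2.36, -2.38 and -2.37 in HFD + EC359. It lay lower in all 3 treated libraries than in any vehicle library. The mean ratio in HFD + EC359 was 0.45 below that in HFD and 0.38 below that in LFD, each with p = 0.1 in an exact two-sided permutation test, the smallest p that 3 against 3 libraries allow, and HFD and LFD differed by 0.06 (exact permutation p = 0.2).

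Vcan encodes versican, a large chondroitin sulfate proteoglycan that binds hyaluronan through its N-terminal domain. It was the rarest member and the one with the largest fold changes in the diet and EC359 comparisons. Counts ran from 82 to 98 in LFD, 294 to 343 in HFD and 112 to 159 in HFD + EC359 libraries, which correspond to 16.8, 15.4 and 15.9 CPM, 38.7, 44.9 and 40.1 CPM, and 16.3, 12.6 and 15.9 CPM. HFD libraries were all above the rest, and LFD and HFD + EC359 overlapped. Vcan was 2.58-fold higher in HFD than in LFD (log2 fold change 1.37, SE 0.108, 95% confidence interval 1.15 to 1.59, adjusted p = 2.7e-12) and 2.76-fold lower with EC359 (-1.46, SE 0.0988, interval -1.66 to -1.26, adjusted p = 1.02e-13).

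HFD + EC359 and LFD tumors differed in Vcan by -0.10 (95% confidence interval -0.35 to 0.16, edgeR, adjusted p = 0.529). Without HFD + EC359 replicate 2, its lowest library, the value was 0.01. Vcan has the lowest GC content of the 8 genes, 42.2%, and once each library's GC and length trend was taken out the 3 values were 1.0, -1.58 and -0.58, the last of which passed (adjusted p = 0.000214).

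**Figure D3:**
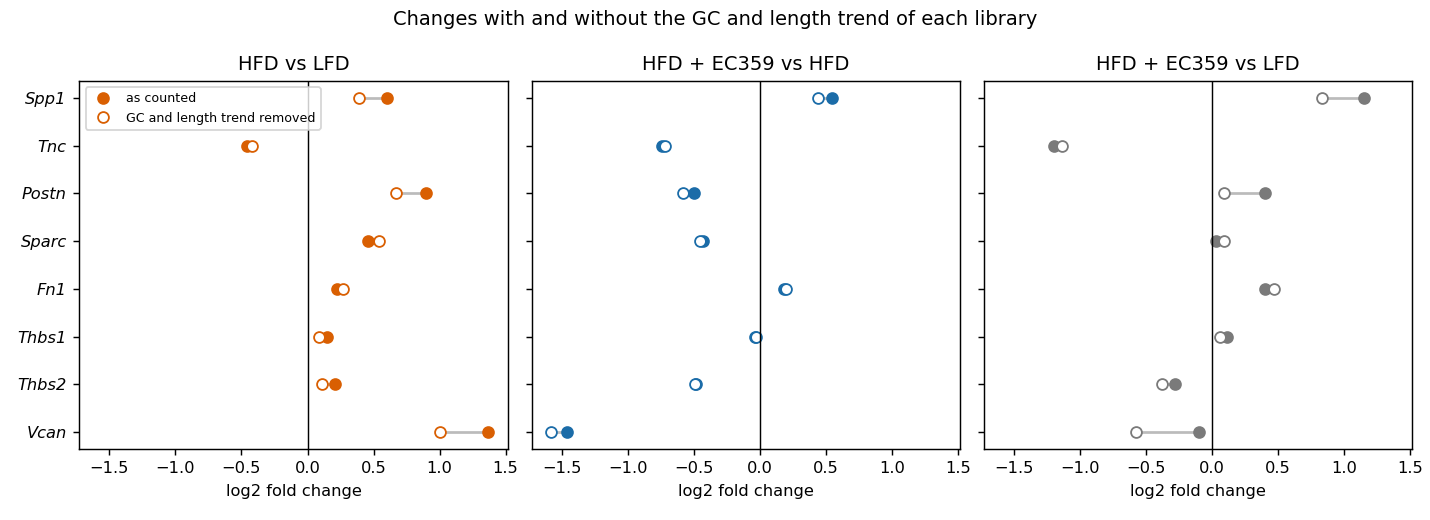
For each gene and comparison the log2 fold change as counted (filled circle) is joined to the value after each library's trend on GC content and length was removed (open circle). Postn in HFD + EC359 vs LFD moves from 0.40 to 0.09 and Vcan from -0.10 to -0.58, while the points of Tnc lie close together in all 3 panels.

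By a measure of likeness, the root mean square difference of log2 CPM centered on each gene's mean over the 9 libraries, the genes closest to each member were found among 9976 genes with a mean of at least 10 CPM. The closest to Tnc was Tnn, which encodes another tenascin (difference 0.0697, group means 24.6, 18.2 and 11.2 CPM in LFD, HFD and HFD + EC359), followed by Fam83d and Cpxm1. Those closest to Vcan were Fstl1, a secreted relative of Sparc (0.114, with 48.5, 129 and 48.3 CPM), Sfrp2 and Bgn. Postn was closest to Cxcr7 (0.0576), Dpysl3 and Rgs5, and Sparc to Irs1 (0.0534), Errfi1 and Sema7a.

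Spp1 was closest to Tlr13 (0.0727), Senp7 and Ghr, and Fn1 to Fam102b (0.0197), Mll1 and Huwe1. Thbs1, which varied little, was closest to Ctnnb1 (0.0205) and Eef1a1, and Thbs2 to Ube2c (0.0299), Tinagl1 and Stmn1. Among the 8 genes themselves the closest pair was Fn1 and Thbs1 (0.124), then Sparc and Thbs2 (0.139), and the farthest Spp1 and Tnc (0.966). The median difference over all genes compared ran from 0.18 for Thbs1 to 0.692 for Vcan, so genes that vary little have many near neighbors.

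Other matricellular genes moved in both directions. Of 26 listed, 19 could be tested: 8 rose and 5 fell with the HFD (median log2 fold change 0.05, against 0.007 over all genes), and 4 rose and 9 fell with EC359 (median -0.24, against 0.006). Of all genes tested, 26.0% rose and 25.8% fell with the HFD, and 12.7% rose and 13.9% fell with EC359, and the counts of each list below stand against these shares and the same medians over all genes. Tnxb, which encodes tenascin X, had 25.8 ± 2.82 CPM in LFD, 133 ± 5.45 in HFD and 35 ± 2.43 in HFD + EC359 (SD, n = 3), with log2 fold changes of 2.37 (adjusted p = 8.24e-23) and -1.92 (adjusted p = 3.88e-22). It thus moved opposite to Tnc in the diet comparison.

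Fbln2, which encodes fibulin 2 and had the highest CPM of these genes, fell with the HFD (-0.47, adjusted p = 2.57e-14, but -0.29 on removal of the GC and length trend) and was at -0.07 with EC359. Nov, also called Ccn3, rose with the HFD (1.79) and fell with EC359 (-0.93), from 1.7 to 5.77 to 3.01 CPM. Thbs4 fell with the HFD (-2.02, at most 28 counts in a library), and Tnr, tenascin R, rose from at most 2 counts in an LFD library to at most 19 in an HFD library, too few for a fold change. Wisp1 and Tgfbi, integrin-binding secreted proteins, were 0.29 and 0.22 higher with EC359 than in HFD and at 0.05 and 0.04 between the diets, values whose sign changed without HFD replicate 3 and, for Wisp1, on removal of the GC and length trend (-0.13), where Tgfbi was at 0.13 and passed (adjusted p = 0.0162).

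The receptors of these proteins moved in both directions. Of 17 tested, 7 rose and 6 fell with the HFD (median -0.01, against 0.007 over all genes), and 5 rose and 7 fell with EC359 (median -0.03, against 0.006). Sdc4, a syndecan that binds fibronectin, fell with the HFD from 1277 ± 57.8 to 903 ± 22.7 CPM (log2 fold change -0.50, adjusted p = 2.93e-14) and stood at 873 ± 5.09 with EC359. Cd36, a thrombospondin receptor and fatty acid transporter, rose with the HFD from 4.53 ± 0.92 to 11 ± 0.87 CPM (1.25, adjusted p = 1.09e-06). With the GC and length trend removed that rise was 0.84. With EC359, Cd36 was at 11.7 ± 1.42 CPM, a difference of 0.09 that did not pass and became -0.05 with that trend removed. Itga8, an integrin chain that binds fibronectin and osteopontin, rose by 1.48 with the HFD (adjusted p = 5.05e-08) and stood at -0.52 with EC359 (adjusted p = 0.00694), a call lost without HFD replicate 1 (-0.39, adjusted p = 0.0941) or without HFD + EC359 replicate 3 (-0.44, adjusted p = 0.0508).

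Itgb8 and Itgb6, integrin chains that bind latent TGF-beta, were rare, with at most 25 and 21 counts in any library. Itgb8 fell with the HFD (-2.45, adjusted p = 6.03e-06). Itgb6 fell with the HFD (-1.78) and rose with EC359 (2.01, adjusted p = 0.00451), but the first call was lost without HFD replicate 1 (-1.50, adjusted p = 0.0684) or without HFD replicate 3 (-1.24, adjusted p = 0.0817), and the 2 values were -3.39 and 3.63 without HFD replicate 2. Of the 3 receptors highest in CPM, Sdc4 fell with the HFD as given above, while Lrp1 and Itgb1 changed less. Lrp1 was at -0.01 between the diets, a sign that changed with the scaling by totals and on removal of the GC and length trend. Itgb1 was at 0.21, which became -0.05 with that trend removed.

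Around versican, the hyaluronan synthases differed from one another. Of 10 genes for hyalectans, link proteins and hyaluronan synthases, 4 could be tested: 2 rose and 1 fell with the HFD (median 0.55), and 1 rose and 2 fell with EC359 (median -0.27). Has2, the synthase with the highest CPM, went from 98.8 ± 7.81 CPM in LFD to 141 ± 4.6 in HFD and 68.3 ± 3.59 in HFD + EC359, with log2 fold changes of 0.51 (adjusted p = 3.06e-09) and -1.04 (adjusted p = 1.01e-16). With the GC and length trend removed the diet difference of Has2 was 0.13 (adjusted p = 0.0256) and that with EC359 -1.16. Has1 moved the same ways (1.40 and -2.62, at most 20 counts in a library), whereas Has3 fell with the HFD (-1.20) and rose with EC359 (1.34, adjusted p = 4.35e-05). The remaining tested gene, Hapln4, did not pass in either comparison, at 0.60 and 0.51.

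Of 5 tested versicanases, the ADAMTS proteases that cut versican, 3 rose and 0 fell with the HFD (median 0.45), and 1 rose and 4 fell with EC359 (median -0.36). Adamts15 rose 1.69 on the log2 scale with the HFD (adjusted p = 3.85e-11) and stood at -1.47 with EC359 (adjusted p = 7.34e-11), from 6.26 to 20.3 to 7.26 CPM. Adamts5 was at 0.48 with the HFD and at -1.0 with EC359 (adjusted p = 8.64e-07), the former not passing with the GC and length trend removed (0.22, adjusted p = 0.21) or without HFD replicate 1 (0.37, adjusted p = 0.0534). Adamts9, the highest in CPM, was at -0.09 between the diets, which passed at -0.19 with that trend removed (adjusted p = 0.00141), and 0.19 higher with EC359 (adjusted p = 0.00194). Adamts4 was at 0.12 between the diets (adjusted p = 0.102), a difference that passed with that trend removed (0.30, adjusted p = 4.97e-05) or with libraries scaled by totals (0.16, adjusted p = 0.0261), and fell with EC359 (-0.36, adjusted p = 1.3e-05). Adamts1 rose with the HFD (0.45, adjusted p = 5.7e-05) and was at -0.25 with EC359 (adjusted p = 0.0192), a call lost in DESeq2 (adjusted p = 0.0674), without HFD replicate 1 (-0.19, adjusted p = 0.141) and without HFD + EC359 replicate 2 (adjusted p = 0.0732) or 3 (adjusted p = 0.0974).

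Most genes whose products assemble with fibronectin, or crosslink that matrix, fell with EC359, where Fn1 itself rose: of 12 tested, 8 rose and 2 fell with the HFD (median log2 fold change 0.50), and 1 rose and 9 fell with EC359 (median -0.86). Past the stricter threshold with EC359, 6 of the 12 were lower. Over all genes tested, 13.9% were lower with EC359 and 1.38% lower past the stricter threshold, and 26.0% were higher with the HFD. Lox, a lysyl oxidase that crosslinks collagen and elastin, had 18.6 ± 1.04 CPM in LFD, 62.7 ± 0.911 in HFD and 21.2 ± 1.83 in HFD + EC359 (1.75, adjusted p = 9.88e-17, and -1.56, adjusted p = 1.07e-16). Fbn1, which encodes the fibrillin of microfibrils, rose by 0.73 and fell by 1.36, Fbn2 rose by 1.52 and fell by 1.85, and Eln, elastin, rose by 0.90 and fell by 1.62.

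Tgm2, the transglutaminase that crosslinks fibronectin, rose with the HFD from 367 ± 15.6 to 566 ± 4.22 CPM (0.63, adjusted p = 9.62e-16) and fell with EC359 to 493 ± 2.52 CPM (-0.20, adjusted p = 2.98e-05). Ltbp2, a latent TGF-beta binding protein and the highest of the 12 in CPM, fell with the HFD (-0.33, adjusted p = 1.52e-10) and was at 0.04 with EC359. With the GC and length trend removed these were -0.13 and 0.14, both passing (adjusted p = 8.91e-05 and 0.000118). Ltbp3, of the same family, was at -0.03 between the diets and at -0.08 with EC359, neither passing, but without that trend it was at 0.23 (adjusted p = 1.12e-07) and 0.05.

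Of 8 genes for TGF-beta ligands and their common targets, 5 rose and 2 fell with the HFD (median 0.41), and 2 rose and 5 fell with EC359 (median -0.30). The 2 that fell with the HFD were Tgfb1 and Smad7, and neither call held with the GC and length trend removed. Tgfb1, which encodes a TGF-beta ligand, was at -0.15 with the HFD (adjusted p = 0.00706), and with that trend removed it passed in the opposite direction, at 0.16 (adjusted p = 0.00107). With EC359 it was at -0.06 and did not pass. Smad7, an inhibitor of the pathway and one of its targets, stood at -0.17 with the HFD, a sign that changed to 0.03 with the GC and length trend removed and a call lost without LFD replicate 1 (-0.08, adjusted p = 0.145), and at -0.41 with EC359 (adjusted p = 2.62e-07).

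**Figure D4:**
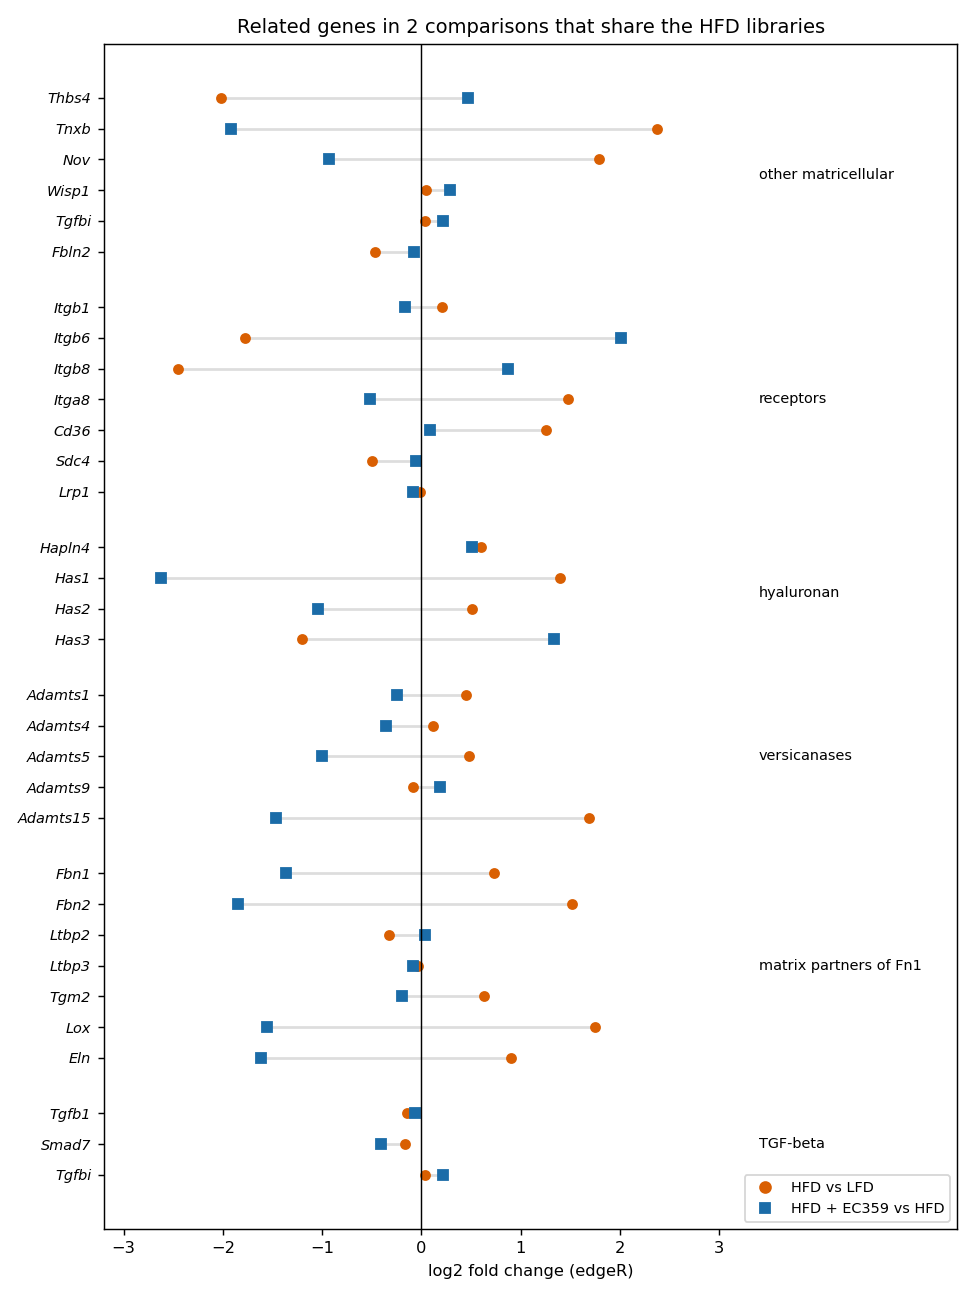
For the named genes of 6 related lists that had more than 3 counts in at least 1 library of each group, the log2 fold change is plotted on the horizontal axis for HFD vs LFD (circles) and HFD + EC359 vs HFD (squares), joined by a line. Both comparisons share the HFD libraries, so opposite signs are in part built in. Tnxb, Lox, Fbn2 and Adamts15 lie far to the right for the diet and far to the left for EC359, and Itgb6 and Has3 the other way round.

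The tumors were also read with marker genes of the cells they could hold. In bulk tissue, fewer cells of a type and less RNA per cell cannot be told apart. All 8 fibroblast markers rose with the HFD, and with EC359 4 fell, 1 rose and 3 did not pass. Their summed level was 7756 to 9224 CPM in LFD, 13504 to 14253 in HFD and 3981 to 4086 in HFD + EC359, a sum led by the collagens, while Pdgfra, a receptor of fibroblasts, went from 323 to 375 to 476 CPM. Postn, Sparc, Thbs2 and Vcan were also highest in HFD, as were the endothelial sum and the pericyte and smooth muscle sum given below. The part of any of these markers in the changes of these genes was not tested.

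Macrophage markers were summed to 1726 to 1771 CPM in LFD, 1887 to 1916 in HFD and 2383 to 2396 in HFD + EC359, and of 8 markers 4 rose and 2 fell with the HFD, while 7 rose with EC359 and 1 did not pass. The 2 that fell with the HFD were Cd14 (-0.56) and Mrc1 (-0.36). Spp1 and Fn1 rose in the same order as the sum. So did the neutrophil and skeletal muscle sums given below and the fibroblast marker Pdgfra. The part of any of these markers was not tested. Epithelial markers, 5 tested of 6, all fell with the HFD, and 4 rose with EC359. They were summed to 1821 to 1956 CPM in LFD, 745 to 755 in HFD and 997 to 1030 in HFD + EC359, and Krt19, the untested marker, averaged 1.07 CPM in LFD and in HFD. Epidermal markers stood at 401 to 439, 136 to 148 and 286 to 294 CPM in the same order of groups. Endothelial markers, 6 of 6 higher with the HFD, were summed to 176 to 185, 330 to 353 and 286 to 298 CPM. With EC359, 4 of them fell and 2 did not pass.

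The remaining marker lists were read in the same way. Pericyte and smooth muscle markers gave 117 to 123 CPM in LFD, 144 to 153 in HFD and 103 to 105 in HFD + EC359. Of 5 tested, 3 rose and 1 fell with the HFD, while with EC359 3 fell and 2 did not pass. Des, the highest of them in LFD, went from 46.5 to 28.3 CPM with the HFD. Neutrophil markers gave 103 to 124, 131 to 143 and 165 to 171 CPM in that order. Skeletal muscle markers gave 282 to 333, 342 to 366 and 378 to 394 CPM, a sum led by Ttn at 222, 239 and 321. Of the 6 skeletal muscle markers, 3 rose and 0 fell with the HFD, and with EC359 1 rose, 3 fell and 2 did not pass. Adipocyte markers were summed to 9.41 to 12.9, 26.2 to 29.1 and 25.3 to 29 CPM, a sum led by Fabp4 at 6.21, 20 and 19.4. Of 4 adipocyte markers tested, 2 rose with the HFD and 2 did not pass. Adipoq averaged 0.356 CPM in LFD and 0.521 in HFD and Lep 0.262 and 0.173, too low to be tested. T and NK cell markers were summed to 9 to 12.3, 7.86 to 9.33 and 12.6 to 14.9 CPM. Of 3 tested, 0 rose and 1 fell with the HFD, and 1 rose and 0 fell with EC359. No marker in these lists was at 0 in all libraries of a group, and the part of these cell types in the results was not tested.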

How the data were processed

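Whole-tumor RNA was sequenced as stranded, paired-end libraries. The deposited values are expected counts per gene, which the authors made with featureCounts (1.5.0-p1, per the file headers) on mm9, without normalization. The submitters' processing notes name HISAT2 2.1.0, whereas the study's methods name TopHat2 and HTSeq. From 1.19% to 3.55% of genes per library held fractions, and values were rounded.

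Analyses used R 4.3.3 and edgeR 4.0.16. Genes were filtered with filterByExpr by group (13366 of 22609 kept) and scaled by TMM, and 1 quasi-likelihood model of the 3 groups gave the 3 comparisons, with Benjamini-Hochberg adjustment. The groups share 1 estimate of the spread in that model, although the LFD libraries varied more. On the 6 libraries of HFD vs LFD alone, the SE of Fn1 was 0.0361 in place of 0.0265, and that of Vcan 0.106 in place of 0.108. The test was checked on simulated data with 1 spread for all groups, so that check does not cover unequal spread. The stricter threshold follows the study's methods. The GC and length trend was a spline per library with 5 degrees of freedom per term. Alternatives were RLE factors, library totals, other filters on low counts, fits on the 6 libraries of a comparison, a replicate block, DESeq2 1.42.0 and leaving out each library. The floor of 3 counts covers counting error only.

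All 8 genes are named, and per list the 3 genes highest in CPM and the 4 with the largest change past the stricter threshold. For each of the 8, the 3 genes most alike in pattern are named, except 1 that is not reported here. Genes and lists were chosen with earlier results of these data known. Libraries of a group differed beyond counting noise (mean chi-square per gene 1.36 to 3.02).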

Additional observations from a re-analysis of the deposited data

How the results depend on the processing

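For the 8 genes, 400 of 408 log2 fold changes under alternatives kept their direction and their side of an adjusted p of 0.05. The other values belong to Postn, Sparc, Thbs1 and Vcan in HFD + EC359 vs LFD. Leaving out 1 library at a time, Vcan there ran from -0.16 to 0.01, positive without HFD + EC359 replicate 2. With the GC and length trend removed, 1 gene, Tnc, in place of 2 passed the stricter threshold in HFD + EC359 vs LFD, and 0 in place of 1 on the higher side, since Spp1 fell under a 2-fold change. DESeq2, run on 18251 genes without the filter on low counts, called 2343 in HFD + EC359 vs HFD, where edgeR called 3549 of 13366. Under the alternatives, edgeR's number ran from 2733 without HFD replicate 1 to 4232 without LFD replicate 1. The cause was not tested.

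Same-numbered libraries of different groups showed no shared deviations from their group means, with correlations of -0.0297 to 0.017. Where libraries of a group differ mostly by counting noise, this check cannot show whether the numbers pair them. With a replicate block, 8, 7 and 6 of the 8 genes passed in the 3 comparisons, as without it, and no call among them changed.

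Among other named genes, 22 of 1604 values changed sign. With the GC and length trend removed these were, in HFD vs LFD, Wisp1 at -0.13, Itgb1 at -0.05, Lrp1 at 0.14, Ltbp3 at 0.23, Tgfb1 at 0.16 and Smad7 at 0.03. In HFD + EC359 vs HFD they were Cd36 at -0.05, Ltbp3 at 0.05 and Tgfb1 at 0.05. In HFD + EC359 vs LFD they were Itgb1 at -0.29, Itgb6 at -0.06, Lrp1 at 0.10, Ltbp2 at 0.0025, Ltbp3 at 0.28 and Tgfb1 at 0.21. With library totals, Lrp1 was at 0.03 and Ltbp3 at 0.01 in HFD vs LFD. Leaving out 1 library at a time in HFD vs LFD, Tgfbi ran from -0.01 to 0.07, Lrp1 from -0.03 to 0.01 and Ltbp3 from -0.08 to 0.02, and Wisp1 was at -0.0023 without HFD replicate 3. Has3 in HFD + EC359 vs LFD ran from -0.0031 to 0.37.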

Other observations

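Fn1 and Col1a1, which encodes a chain of the type I collagen that is laid down on fibronectin, parted in the treated tumors. This pair was chosen after its values were seen. The ratio of Fn1 to Col1a1, each in CPM per kilobase, was 0.451, 0.593 and 0.581 in the LFD libraries, 0.369, 0.381 and 0.396 in HFD and 1.83, 1.79 and 1.9 in HFD + EC359. On the log2 scale the mean ratio in HFD + EC359 was higher than in HFD by 2.27 and higher than in LFD by 1.77 (exact two-sided permutation p = 0.1 for each, the smallest that 3 against 3 libraries allow). HFD stood at -0.49 relative to LFD (exact permutation p = 0.1), again with no overlap between libraries. Col1a1 itself went from 4212 to 6870 to 1613 CPM. Its log2 fold change between HFD + EC359 and HFD was -2.09, against 0.18 for Fn1, so most of that gap lay with Col1a1. The ratio was not corrected for GC content, which is 61.9% for Col1a1 and 53.5% for Fn1.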
